A study of Mus musculus with 16 samples.

Results

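The Arp2/3 complex subunits were followed as 9 genes chosen by symbol, Actr2, Actr3, Arpc1a, Arpc1b, Arpc2, Arpc3, Arpc4, Arpc5 and Arpc5l, out of 26653 genes listed in any of 3 deposited expression tables. All 9 were listed in each table, and all 9 passed the filter on low values in each. The data were 16 RNA sequencing libraries of mouse cells in 8 groups of 2. Embryonic stem cells (ESCs) were wild type, knockout (KO) for Actb, the gene of beta-actin, or carried a full deletion of the Actb locus. The embryonic fibroblasts (MEFs) comprised wild type, KO for Actg1, the gene of gamma-actin, and a full deletion of the Actg1 locus. Kidney fibroblasts (MKFs) were floxed or KO for Kindlin-2 (gene Fermt2), which helps to activate integrins, where floxed means that recombination sites flank the piece to be removed. The series asked about transcriptional adaptation, in which decay of a mutant mRNA is said to change the expression of other genes, and a locus deletion is meant to leave no mutant mRNA. The labels do not give the alleles, the number of clones, the Cre or the age of any animal.

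The complex starts new actin filaments as branches on the side of existing ones. The actin-related proteins encoded by Actr2 and Actr3 come together to mimic the end of a growing filament, and the other subunits hold them in place and bind the older filament. Proteins of the WASP, WAVE and WASH families switch the complex on, and the branched networks that result push the leading edge of moving cells and shape endosomes. Arpc1 and Arpc5 are each encoded by a pair of genes whose products replace one another in the complex, so mammalian cells hold a mixture of complexes.

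On GRCm38, 3 of the genes lie on chromosome 1, namely Actr3 (ENSMUSG00000026341, 125392905 to 125435727, minus strand), Arpc2 (ENSMUSG00000006304, 74236084 to 74268209, plus strand) and Arpc5 (ENSMUSG00000008475, 152766542 to 152775597, plus strand). Chromosome 5 holds Arpc3 (ENSMUSG00000029465, 122391878 to 122414184) and the neighbours Arpc1a (ENSMUSG00000029621, 145083830 to 145108761) and Arpc1b (ENSMUSG00000029622, 145114215 to 145130705), all on the plus strand, and the last 2 are 5453 bases apart. Actr2 (ENSMUSG00000020152) lies on chromosome 11, 20062304 to 20112913, minus strand. Arpc4 (ENSMUSG00000079426) lies on chromosome 6, 113378115 to 113390448, and Arpc5l (ENSMUSG00000026755) on chromosome 2, 39005348 to 39015877, both on the plus strand.

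RefSeq promoter windows on GRCm38.p6, from 250 bases before to 50 after the start of transcription, were matched by symbol for 8 of the 9 genes. Those of Actr3, Arpc2, Arpc4 and Arpc5 are printed because these genes rose together in ESCs without the Actb locus. They are written 5′ to 3′ on the strand of the gene. Capitals mark CGGAAGT on either strand, the core letters of sites bound by ETS family factors, and the CArG box, the site of serum response factor, whose partner proteins are held back by free actin.
Actr3: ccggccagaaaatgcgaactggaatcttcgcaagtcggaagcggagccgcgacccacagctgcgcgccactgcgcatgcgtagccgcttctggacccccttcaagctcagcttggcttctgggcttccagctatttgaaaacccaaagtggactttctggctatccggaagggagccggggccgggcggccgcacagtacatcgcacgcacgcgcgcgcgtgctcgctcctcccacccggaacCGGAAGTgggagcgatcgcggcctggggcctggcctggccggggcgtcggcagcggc
Arpc2: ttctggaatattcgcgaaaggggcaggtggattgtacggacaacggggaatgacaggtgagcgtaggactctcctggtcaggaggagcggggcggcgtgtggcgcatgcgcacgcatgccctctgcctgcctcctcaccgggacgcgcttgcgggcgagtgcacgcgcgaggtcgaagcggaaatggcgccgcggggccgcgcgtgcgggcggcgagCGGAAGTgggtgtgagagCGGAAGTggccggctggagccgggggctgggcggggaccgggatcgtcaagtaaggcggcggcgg
Arpc4: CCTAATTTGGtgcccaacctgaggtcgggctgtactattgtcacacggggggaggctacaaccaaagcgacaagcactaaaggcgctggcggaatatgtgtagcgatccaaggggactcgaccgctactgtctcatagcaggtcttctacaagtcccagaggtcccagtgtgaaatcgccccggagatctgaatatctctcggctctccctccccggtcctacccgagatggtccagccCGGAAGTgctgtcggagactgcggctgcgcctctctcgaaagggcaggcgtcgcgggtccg
Arpc5: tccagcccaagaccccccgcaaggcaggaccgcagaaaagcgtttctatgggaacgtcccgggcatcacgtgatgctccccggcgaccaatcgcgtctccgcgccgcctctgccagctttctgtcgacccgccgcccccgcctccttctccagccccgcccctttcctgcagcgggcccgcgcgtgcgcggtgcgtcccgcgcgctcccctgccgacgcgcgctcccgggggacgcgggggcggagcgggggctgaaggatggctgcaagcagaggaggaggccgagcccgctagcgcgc
The Actr3 window is chr1:125435678-125435977 on the minus strand. On the plus strand lie the windows of Arpc2 (chr1:74236267-74236566), Arpc4 (chr6:113377863-113378162) and Arpc5 (chr1:152766292-152766591). CGGAAGT stood in 6 of the 8 windows and in 6.42% of all 32851 promoter windows, and it was chosen after the windows had been read. Among the printed windows it is in Actr3, Arpc2 and Arpc4 and not in Arpc5, the gene with the largest rise of the 4. The CArG box stood in 1 of the 8, that of Arpc4, starting at base -250, and in 1.63% of all windows. The letters GGGCGG, which Sp1 binds, stood in 6 of the 8 and in 35.7% of all windows. Both strands were searched, GGGCGG and CGGAAGT can overlap in CGG, and a match describes the letters only.

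Levels below are normalised read counts, that is deposited counts scaled per library, given for library 1 and then library 2 of a group. Summed values per library were 16022043 to 16529089 in ESCs, 20305511 to 22094490 in MEFs and 15565648 to 16324223 in MKFs, and the smallest value of any subunit was 257. Differences are log2 fold changes on the log2(value + 1) scale with their standard error (SE), and adjusted p-values are from limma over all genes tested in the table, 2-sided, with a gene said to rise or fall at an adjusted p under 0.05. Whether libraries 1 and 2 of a group stem from separate cultures is not in the labels, so the spread behind each p-value may be technical. The targeted genes were lower in each mutant: Actb was 36364 and 34140 in wild-type ESCs, 23650 and 22707 in the KO and 2372 and 2336 without the locus, so reads assigned to Actb remained there, and their source was not tested. Actg1 was 5737 and 5672 in wild-type MEFs, 1004 and 1026 in the KO and 25 and 15 without the locus, and Fermt2 was 3078 and 3142 in floxed and 1251 and 1240 in KO MKFs. ESC markers were all detected in ESCs (8 of 8). In bulk RNA, fewer cells of a kind and less RNA per cell cannot be told apart.

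**Figure D1:**
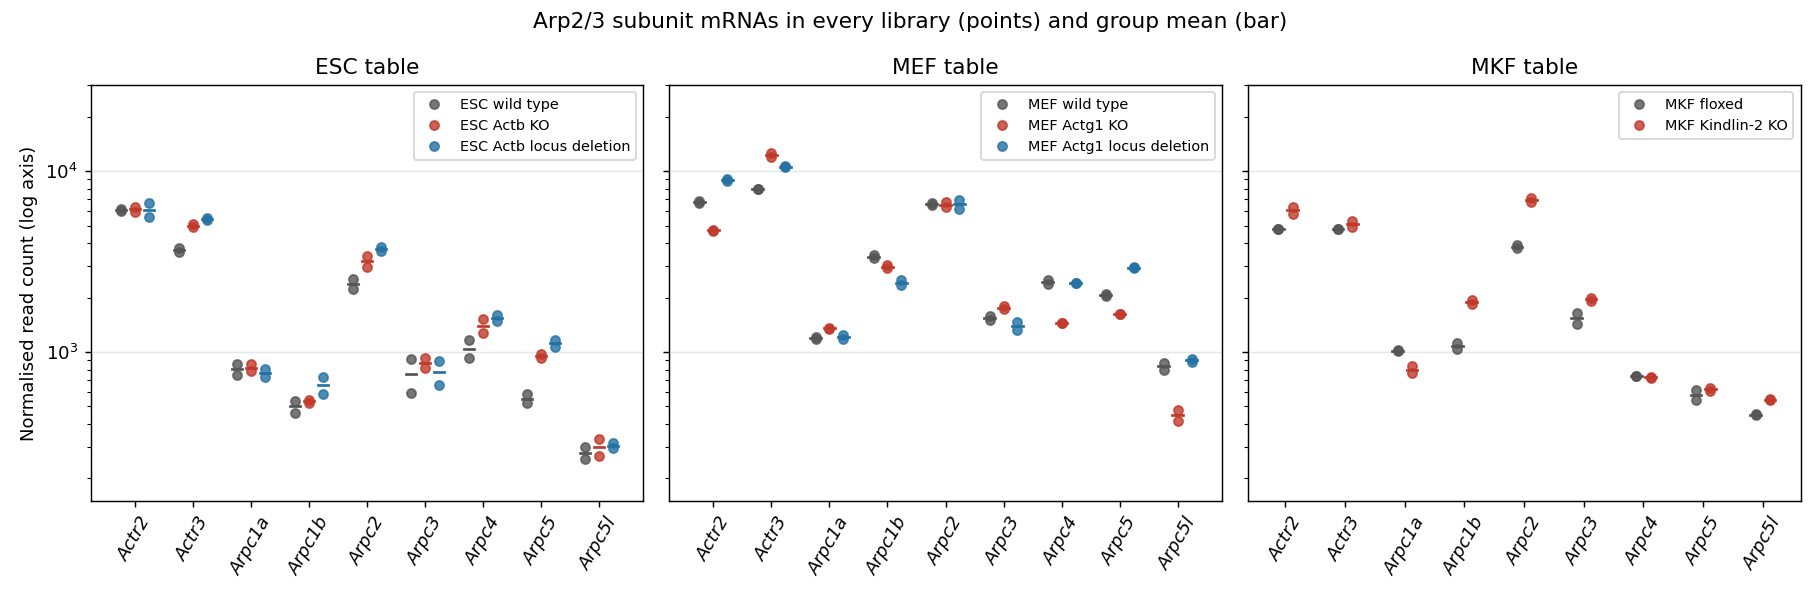
Normalised read count of each Arp2/3 subunit in every library on a log axis, 1 panel per table, with a point per library and a bar at the group mean. In the MEF panel Actr3 of the KO stands above wild type while Actr2, Arpc4, Arpc5 and Arpc5l stand below it, and in the MKF panel Arpc2 and Arpc1b of the KO stand above floxed.

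In ESCs KO for Actb, Actr3 and Arpc5 rose, none of the 9 subunits fell, and the other 7 did not pass the test. Actr3, the gene of the larger actin-related protein of the pair, read 3565 and 3770 in wild type and 5078 and 4936 in the KO. The groups did not overlap, and the difference was 0.45 (SE 0.0917, adjusted p = 0.0326). Arpc5, whose product ties the Actr2 product to the rest of the complex, read 584 and 521 in wild type and 977 and 923 in the KO. Here too both KO libraries were higher, with a difference of 0.78 (SE 0.114, adjusted p = 0.00909). The count of 2 in 9 (22.2%) stood beside 4.88% of 23054 genes called in this comparison (2.44% higher and 2.44% lower), and 8.12% of the 9475 genes with a mean of at least 100. Over all genes, 563 rose and 563 fell, a split of 50% higher that became 37.3% (467 higher, 786 lower) after rescaling without genes that take more than 1% of a library.

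The remaining subunits of the Actb KO included a pair whose libraries also stood apart. Arpc2, which with Arpc4 forms the clamp on the older filament, read 2241 and 2520 in wild type and 2967 and 3402 in the KO, a difference of 0.42 (adjusted p = 0.074). Arpc4 read 932 and 1159 in wild type and 1269 and 1522 in the KO, a difference of 0.42 (adjusted p = 0.139). Neither passed the test, although each KO library was above each wild-type library. In all, 4 of 9 subunits had both KO libraries above wild type and 0 had both below, against 23.2% and 23.6% of all genes. Of the 9475 genes with a mean of at least 100, 2958 had both above and 2387 had both below. Actr2, the partner of Actr3, read 6172 and 6055 in wild type and 6352 and 5942 in the KO, a difference of 0.01 with a 95% interval from -0.25 to 0.26. Arpc1a, Arpc1b, Arpc3 and Arpc5l differed by 0.03 to 0.23 with adjusted p between 0.612 and 0.923, and their libraries overlapped. The median over the 9 subunits was 0.23, and over all genes it was 1.9e-05.

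Both calls in the Actb KO were lost whenever 1 library was left out (adjusted p from 0.139 to 0.294 for Actr3 and from 0.128 to 0.218 for Arpc5), without the trend in the variance prior (0.197 and 0.114) and with only the 4 libraries compared (0.0835 and 0.0538), and Actr3 also after rescaling without genes over 1% of a library (0.0638). With a replicate block, Arpc2 also passed (adjusted p = 0.0239, range over its alternatives 0.0239 to 0.374) and the calls over all genes rose to 1850. Over all alternatives the difference stayed between 0.38 and 0.49 for Actr3 and between 0.7 and 0.86 for Arpc5.

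In ESCs without the Actb locus, 4 subunits rose, Actr3, Arpc2, Arpc4 and Arpc5, and again none fell. Arpc5 read 1171 and 1073, against 584 and 521 in wild type, a difference of 1.02 (SE 0.114, adjusted p = 0.00155), which put its mean at 203% of wild type. Arpc2 read 3635 and 3819 against 2241 and 2520, a difference of 0.65 (SE 0.111, adjusted p = 0.00882). For the 2 clamp genes and Arpc5, both libraries without the locus were above both of wild type. Arpc4 read 1601 and 1484 against 932 and 1159, a difference of 0.57 (SE 0.14, adjusted p = 0.0364). Arpc4 shares 283 exon bases with Ttll3 on the same strand, a gene at much lower values (172.5 ± 0.707, SD, n = 2, in wild type) that fell in the Actb KO (-0.97, adjusted p = 0.0281) and without the locus (-0.72, adjusted p = 0.0449) and rose in the Kindlin-2 KO (0.79, adjusted p = 0.0153). The part of shared reads in the Arpc4 values was not tested. Actr3 read 5525 and 5340 against 3565 and 3770, a difference of 0.57 (SE 0.0917, adjusted p = 0.00703). The 4 of 9 called (44.4%, all higher) stood beside 11.2% of all genes (5.19% higher and 6% lower) and 17.8% of genes with a mean of at least 100.

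The 5 other subunits of the locus deletion included Arpc1b, which contacts the activators, at 588 and 724 against 539 and 461 in wild type. That difference was 0.39 (adjusted p = 0.122), with both libraries higher. Actr2 read 6631 and 5559, on either side of wild type, a difference of -0.01 with a 95% interval from -0.26 to 0.24. Arpc1a, Arpc3 and Arpc5l differed by -0.07, 0.06 and 0.14 (adjusted p between 0.645 and 0.904), and the libraries of all 3 overlapped with wild type. Both libraries without the locus were above wild type for 5 of 9 subunits and below it for 0, against 24.7% and 25% of all genes. Of the 9475 genes with a mean of at least 100, 3086 had both above and 2559 had both below. The median over the subunits was 0.39, and over all genes 0.01. Leaving out 1 library left 0 or 1 call among the subunits, and Arpc5 alone kept its call, in 1 of those 4 fits. Without the trend there was none, with the adjusted p of Arpc5 at 0.0507, and Arpc4 also missed after rescaling without genes over 1% of a library (0.0512) and with only the 4 libraries compared (0.0978). Over all alternatives the adjusted p ran from 0.000377 to 0.06 for Arpc5, 0.00352 to 0.0978 for Actr3, 0.00197 to 0.108 for Arpc2 and 0.0137 to 0.225 for Arpc4.

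The 2 Actb alleles were also compared with each other, since comparisons with wild type share the same control libraries. None of the 9 subunits passed limma's test between KO and locus deletion, and none had an unadjusted p under 0.05, while 4.88% of all genes passed (2.56% higher and 2.32% lower) and 7.59% of those with a mean of at least 100. The number with an unadjusted p under 0.05 was 2 with a replicate block, 2 after rescaling without genes over 1% of a library, 1 with only the 4 libraries compared, 1 without library 1 of the locus deletion, and 0 in the other alternatives. Actr3, Arpc1b, Arpc2 and Arpc5 were lower in both KO libraries than in both libraries without the locus, with differences from -0.29 to -0.12, which is 4 of 9 beside 23% of all genes, and 0 of 9 were higher in both beside 23.4%. Of the 9475 genes with a mean of at least 100, 2561 were lower in both KO libraries and 2693 were higher in both. The 95% interval of the difference was -0.5 to 0.02 for Arpc5 and -0.48 to 0.02 for Arpc2. For Actr3 it was -0.33 to 0.09, so these intervals hold both no difference and a lower KO.

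Genes listed as markers of other cells moved in the ESC table as well, and whether other cells were present was not tested. The 4 of 9 macrophage and blood cell markers that the table lists summed to 1113 and 989 in wild type, 2052 and 1961 in the KO and 1398 and 1285 without the locus, mostly from Laptm5, while Ptprc, Adgre1, Tyrobp, Aif1 and Lyz2 were not in the table. Epithelial markers, 6 of 8 listed, summed to 12870 and 12386, 9623 and 9580, and 7718 and 7561 in the same order. Most of the sum in the mutants was Cdh1, at 8280 and 8370 in the KO and 7104 and 6929 without the locus. Esrrb of the ESC list read 7866 and 8334 in the KO, a like level. A sum led by Cdh1 therefore cannot be assigned to other cells. Within that list Krt8 and Krt18 rose in the KO, by 1.66 and 2.12, and fell without the locus (-1.93 and -2.20). The part of these shifts in the subunit differences was not tested.

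**Figure D2:**
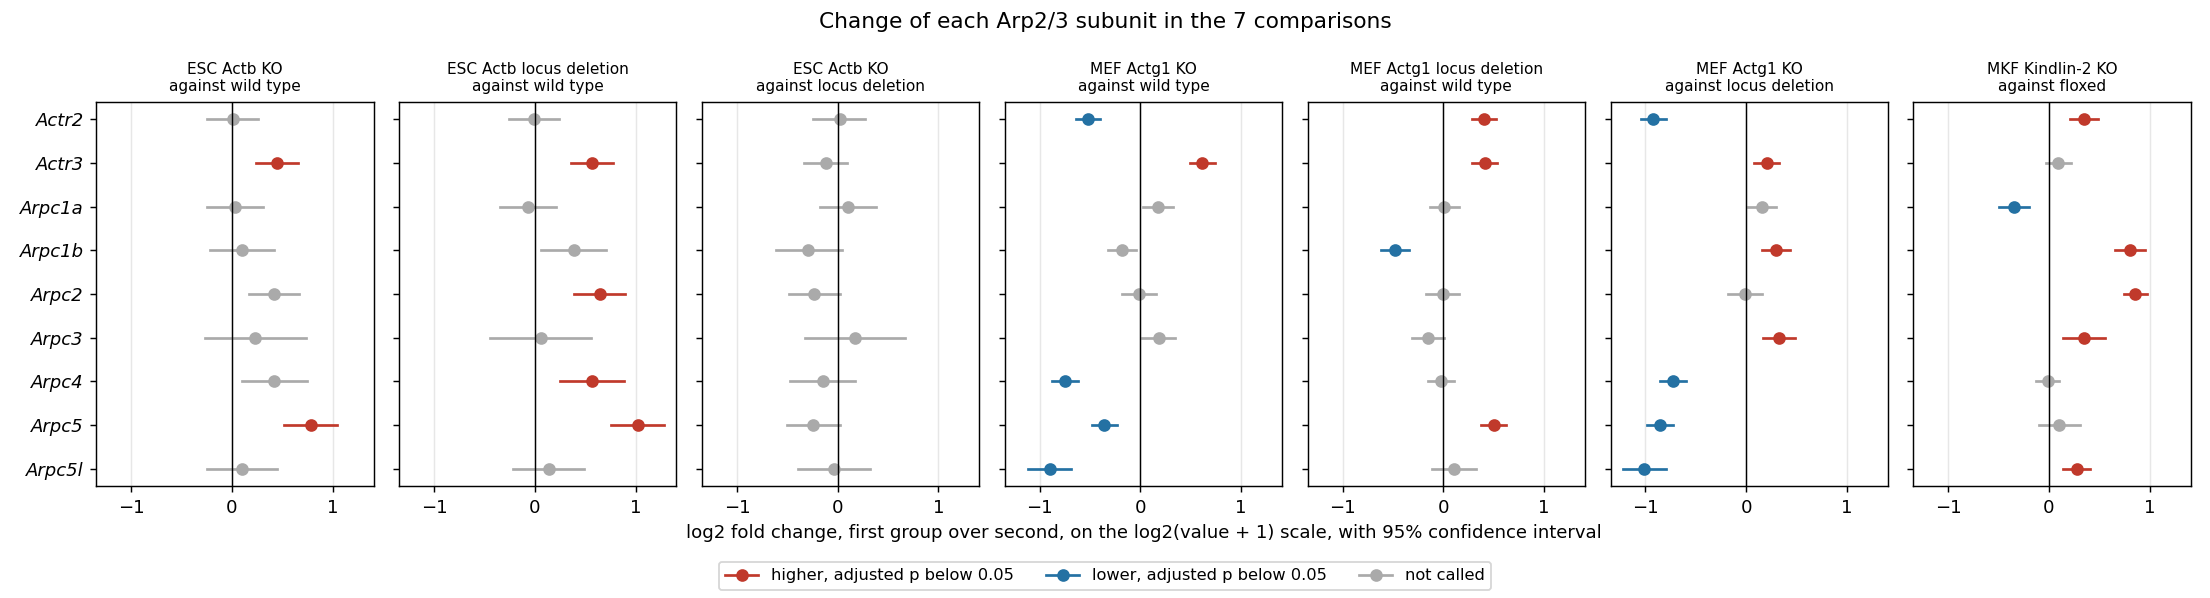
Log2 fold change of each subunit with its 95% confidence interval in the 7 comparisons, red where the gene rose, blue where it fell and grey where it was not called. Points lie above 0 for the called ESC subunits, on both sides of 0 in each MEF panel, and Actr2 changes side between the MEF KO (-0.52) and the MEF locus deletion (0.40).

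In MEFs KO for Actg1 the subunits split: Actr3 rose, and Actr2, Arpc4, Arpc5 and Arpc5l fell. Actr3 read 7981 and 8002 in wild type and 11909 and 12553 in the KO, a difference of 0.61 (SE 0.054, adjusted p = 9.41e-05). Its partner Actr2 read 6640 and 6870 in wild type and 4688 and 4748 in the KO, a difference of -0.52 (SE 0.052, adjusted p = 0.000177). The genes of the 2 actin-related proteins thus moved in opposite directions, each with no overlap between groups. Arpc4 read 2506 and 2383 in wild type and 1448 and 1456 in the KO, a difference of -0.75 (SE 0.0565, adjusted p = 4.58e-05). Its partner in the clamp, Arpc2, read 6674 and 6471 against 6318 and 6714 in the KO, a difference of -0.01 with a 95% interval from -0.18 to 0.15. The clamp genes therefore also separated, with Arpc4 at 59.4% of its wild-type mean and Arpc2 at 99.1%.

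Both Arpc5 paralogues fell in the Actg1 KO. Arpc5 read 2050 and 2105 in wild type and 1617 and 1621 in the KO, a difference of -0.36 (SE 0.0538, adjusted p = 0.00133). Arpc5l read 795 and 875 in wild type and 416 and 477 in the KO, a difference of -0.90 (SE 0.0911, adjusted p = 0.000179). Exons of Arpc5l share 62 bases with Rpl35 on the other strand, a ribosomal protein gene that fell by 1.02 (adjusted p = 4.3e-05). They also share 62 bases with Wdr38 on the same strand, a gene at lower values (44 ± 1.41, SD, in wild type). Wdr38 fell as well (-0.69, adjusted p = 0.0442). Whether counting used the strand is not given in the sources used here. The part of Rpl35 or Wdr38 reads in the Arpc5l values was not tested. The remaining subunits were near the threshold: Arpc1b read 2899 and 3040 against 3298 and 3426 (-0.18, adjusted p = 0.0508), Arpc1a 1360 and 1344 against 1183 and 1214 (0.17, adjusted p = 0.055), and Arpc3, a subunit beside the Actr3 product, 1719 and 1788 against 1511 and 1577 (0.18, adjusted p = 0.0709). None of these 3 overlapped with wild type, and with only the 4 libraries compared all 3 passed (adjusted p from 0.0376 to 0.0432; over all alternatives 0.00543 to 0.277).

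The 5 of 9 called in the Actg1 KO (55.6%) stood beside 39.7% of 21589 genes, and beside 59% of the 9879 genes with a mean of at least 100. The share called was near that of the latter. By direction, 1 subunit rose and 4 fell, against 20.6% and 19.1% of all genes, and both KO libraries were above wild type for 3 subunits and below it for 5, against 37% and 31.5% of all genes. The median over the subunits was -0.18, over all genes 0.06 and over genes with a mean of at least 100 -0.06. Of the 9879 genes with that mean, 2467 rose and 3362 fell. Both KO libraries were above wild type for 3670 of these and below it for 4572. The 5 calls held in each of the 13 alternatives, with differences from 0.58 to 0.70 for Actr3, from -0.54 to -0.43 for Actr2 and from -0.79 to -0.67 for Arpc4. The fibroblast markers, all 9 of which are listed, summed to 38916 and 35610 in wild type, 145300 and 152182 in the KO and 33040 and 33428 without the locus, led by Col1a1, and 5 of them rose and 2 fell in the KO. Their part in the subunit differences was not tested.

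In MEFs without the Actg1 locus, both actin-related protein genes rose together. Actr2 read 9017 and 8831 against 6640 and 6870 in wild type, a difference of 0.40 (SE 0.052, adjusted p = 0.00154). Actr3 read 10532 and 10672 against 7981 and 8002, a difference of 0.41 (SE 0.054, adjusted p = 0.00169). Arpc5 rose as well, to 2935 and 2929 from 2050 and 2105, by 0.50 (SE 0.0538, adjusted p = 0.000704). Arpc1b was the 1 subunit that fell, to 2334 and 2494 from 3298 and 3426, a difference of -0.48 (SE 0.0612, adjusted p = 0.00146), and both libraries were below wild type. The 4 called (44.4%) stood beside 22% of all genes (9.46% higher and 12.6% lower) and 37.9% of those with a mean of at least 100. Both libraries without the locus were above wild type for 4 subunits and below it for 2, against 26.3% and 27.8% of all genes. Of the 9879 genes with a mean of at least 100, 3491 had both above and 3585 had both below. Arpc1a, Arpc2, Arpc3, Arpc4 and Arpc5l differed by -0.15 to 0.11 with adjusted p of 0.183 or more. The median over the subunits was 0.01 and over all genes 0. Without the trend only Arpc5 stayed called (adjusted p = 0.0395), with Actr2, Actr3 and Arpc1b at 0.0585, 0.0593 and 0.0521, and each of the 4 kept its call with any 1 library left out.

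Set against each other, the 2 Actg1 mutants differed in 7 of 9 subunits (77.8%, beside 45.2% of all genes and 65% of those with a mean of at least 100), 3 higher and 4 lower in the KO beside 24.5% and 20.7% of all genes. Groups did not overlap for 4 subunits higher and 4 lower in the KO, against 37.6% and 31.8% of all genes. Of the 9879 genes with a mean of at least 100, 2863 were called higher and 3555 lower in the KO. Groups did not overlap for 3812 of these higher and 4511 lower. Actr2 was lower in the KO, at 4688 and 4748 against 9017 and 8831 without the locus, a difference of -0.92 (SE 0.052, adjusted p = 8.5e-06). The differences were -0.86 for Arpc5 (adjusted p = 1.36e-05), -0.73 for Arpc4 (adjusted p = 3.7e-05) and -1.01 for Arpc5l (adjusted p = 7.65e-05). That of Arpc5l stood beside -1.35 for Rpl35 and -1.01 for Wdr38, which share exon bases with it. The difference between the 2 mutants in Actr2, Arpc4, Arpc5 and Arpc5l was thus tested directly, and it kept its direction and its call in all 13 alternatives for each of them. Actr3, Arpc1b and Arpc3 were higher in the KO, by 0.21, 0.30 and 0.33 (adjusted p = 0.0162, 0.00522 and 0.00582). Without the trend these 3 did not pass (adjusted p from 0.0621 to 0.127), nor did Actr3, Arpc1b and Arpc3 without library 2 of the KO (0.0907, 0.0714 and 0.0861) or Arpc3 without library 1 of the KO (0.0634). Arpc2 differed by -0.01, with a 95% interval from -0.18 to 0.16.

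In MKFs KO for Kindlin-2, 5 subunits rose and 1 fell. Arpc2 read 3754 and 3909 in floxed and 7106 and 6739 in KO cells, a difference of 0.85 (SE 0.0443, adjusted p = 0.000226). Arpc1b read 1042 and 1126 in floxed and 1933 and 1854 in KO cells, a difference of 0.80 (SE 0.0561, adjusted p = 0.000486). These were the largest differences among the subunits here, at 181% and 175% of the floxed mean. Actr2 rose from 4780 and 4778 to 6371 and 5826, by 0.35 (SE 0.0521, adjusted p = 0.005). Arpc3 rose from 1422 and 1654 to 1986 and 1925, by 0.35 (SE 0.0806, adjusted p = 0.0205). Arpc5l rose from 446 and 453 to 542 and 548, by 0.28 (SE 0.0523, adjusted p = 0.0109), beside a rise of 0.28 in Rpl35, which shares exon bases with it. Arpc1a fell from 1016 and 1021 to 832 and 767, a difference of -0.35 (SE 0.0573, adjusted p = 0.00682), so the neighbouring Arpc1 paralogues moved apart. Pdap1, which shares 931 exon bases with Arpc1b on the other strand, rose by 0.19 (adjusted p = 0.0379).

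The other subunits of the Kindlin-2 KO did not pass. Arpc4, the partner of Arpc2, read 734 and 733 in floxed and 723 and 729 in KO cells, a difference of -0.01 with a 95% interval from -0.13 to 0.10. Actr3 differed by 0.09 (interval -0.03 to 0.22) and Arpc5 by 0.10 (interval -0.10 to 0.31). The 6 of 9 called (66.7%) stood beside 49.2% of 18288 genes (24.3% higher and 24.9% lower) and 65.9% of the 9439 genes with a mean of at least 100, which is near the share of the latter. Both KO libraries were above floxed for 6 subunits and below for 2, against 37% and 36.3% of all genes. Of the 9439 genes with a mean of at least 100, 3964 had both above and 4108 had both below. The median over the subunits was 0.28 and over all genes 0.01. Leaving out 1 library left 1 to 3 calls: Arpc3 and Arpc5l lost theirs in all 4 such fits (adjusted p from 0.0548 to 0.25 and from 0.0584 to 0.0718), Actr2 and Arpc1a without either floxed library (0.126 to 0.135), Arpc1b without either KO library (0.0535 and 0.0566) and Arpc2 without floxed library 1 (0.0507). Without the trend Actr2 and Arpc3 did not pass (0.052 and 0.0918).

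Cell markers shifted strongly between the MKF groups. The kidney epithelium markers listed, 7 of 8, summed to 5610 and 5896 in floxed and 24605 and 24926 in KO cells, with 5 higher and 0 lower, among them Epcam at 26 and 11 against 3430 and 3401 and Cdh1 at 10 and 16 against 1399 and 1531. Of 9 fibroblast markers, Col3a1, Thy1, Dcn and Lum were not in the table, and the other 5 summed to 389 and 450 in floxed and 23 and 21 in KO cells, with 4 lower and 1 higher. These defining fibroblast genes are thus low or absent from the table in cells labelled as kidney fibroblasts. The part of the marker shift in the subunit differences was not tested.

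The subunits did not share 1 direction of change in the MEF or MKF comparisons. The range between the lowest and the highest of the 9 differences was 0.78 in the Actb KO, 1.09 in the Actb locus deletion, 1.52 in the Actg1 KO, 0.98 in the Actg1 locus deletion and 1.20 in the Kindlin-2 KO. The median SE of a single subunit was 0.123 in ESCs, 0.0608 in MEFs and 0.0523 in MKFs. For scale, the 8 genes of the TRiC chaperonin, which folds actin, spanned 0.41, 0.56, 1.11, 0.46 and 0.86 in the same 5 comparisons. The 6 dynactin genes listed, Dctn1 to Dctn6, spanned 0.84, 1.00, 0.84, 0.81 and 1.07. Dynactin is built on a short filament of another actin-related protein, and genes of that filament were not on this list. The subunit range was wider than that of TRiC in each of the 5 and wider than that of the listed dynactin genes in 4, the Actb KO being the exception. The list of WAVE complex partners, some at low levels, spanned 0.99, 1.99, 5.02, 3.07 and 1.17. It was wider than the subunits in all but the Kindlin-2 KO. Genes with a mean of at least 100, a set not matched to the subunits in abundance, spread more widely than the subunits. The SD of the 9 differences was 0.26, 0.37, 0.49, 0.31 and 0.38 in these 5 comparisons, and over the genes with a mean of at least 100 it was 0.40, 0.48, 0.87, 0.62 and 1.13. These are descriptions of lists of unequal size with no test between them.

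Summed over the 9 genes, with no correction for length, the subunits took a larger share of the counts in each mutant, a description with no test. The 9 genes took 0.1% of the summed values in both wild-type ESC libraries, 0.117% in both Actb KO libraries and 0.13% and 0.124% without the locus. In MEFs the share was 0.152% in both wild-type libraries, 0.159% and 0.164% in the Actg1 KO, and 0.17% and 0.172% without the locus. It was 0.117% in both floxed MKF libraries and 0.16% and 0.154% in the Kindlin-2 KO. The share of every mutant library thus stood above the controls of its table. The summed normalised counts of the 9 genes did so too in the other mutants, but in the Actg1 KO they were 32374 and 33741 against 32638 and 32923 in wild type, which overlap. In that KO the mean of Actr3 rose from 7991.5 to 12231 while 4 other subunits fell. The sums over all genes were lower in that KO, 20305511 and 20539617 against 21507900 and 21718732.

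Ratios of 2 subunits within a library do not depend on its scaling. The ratio of Actr3 to Actr2, taken after the values had been seen, was 0.578 and 0.623 in wild-type ESCs, 0.799 and 0.831 in the Actb KO and 0.833 and 0.961 without the locus. In MEFs it was 1.2 and 1.16 in wild type, 2.54 and 2.64 in the Actg1 KO and 1.17 and 1.21 without the locus. The Actg1 KO was the group with the highest ratio of the 3, at 2.19-fold wild type, and wild type and locus deletion overlapped. In MKFs the ratio was 1 and 1.01 in floxed and 0.836 and 0.845 in KO cells. An exact permutation test of 2 against 2 libraries, 2-sided, gives 0.333 at the least, which is the value of every group pair that did not overlap, so it cannot pass the threshold here.

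The ratios of the paralogues differed between the control groups of the 3 tables. Arpc1b to Arpc1a was 0.625 and 0.618 in wild-type ESCs, 2.79 and 2.82 in wild-type MEFs and 1.03 and 1.1 in floxed MKFs, read counts not corrected for length. Within MEFs it fell to 2.13 and 2.26 in the KO and 1.97 and 2.01 without the locus, and in MKFs it was 2.32 and 2.42 in KO cells. Only the Actb KO overlapped with its control (0.613 and 0.694), and without the Actb locus the ratio was 0.729 and 0.997. Arpc5l to Arpc5 was 0.509 and 0.493 in wild-type ESCs, 0.339 and 0.287 in the KO and 0.268 and 0.274 without the locus. In MEFs it was 0.388 and 0.416, 0.257 and 0.294, and 0.3 and 0.313 in the same order. Both actin mutants of each table were below their wild type, while in MKFs the ratio was 0.726 and 0.834 in floxed and 0.854 and 0.903 in KO cells. Complexes with the Arpc1b and Arpc5l products are known to be the more active ones, but mRNA ratios are all that was measured here.

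**Figure D3:**
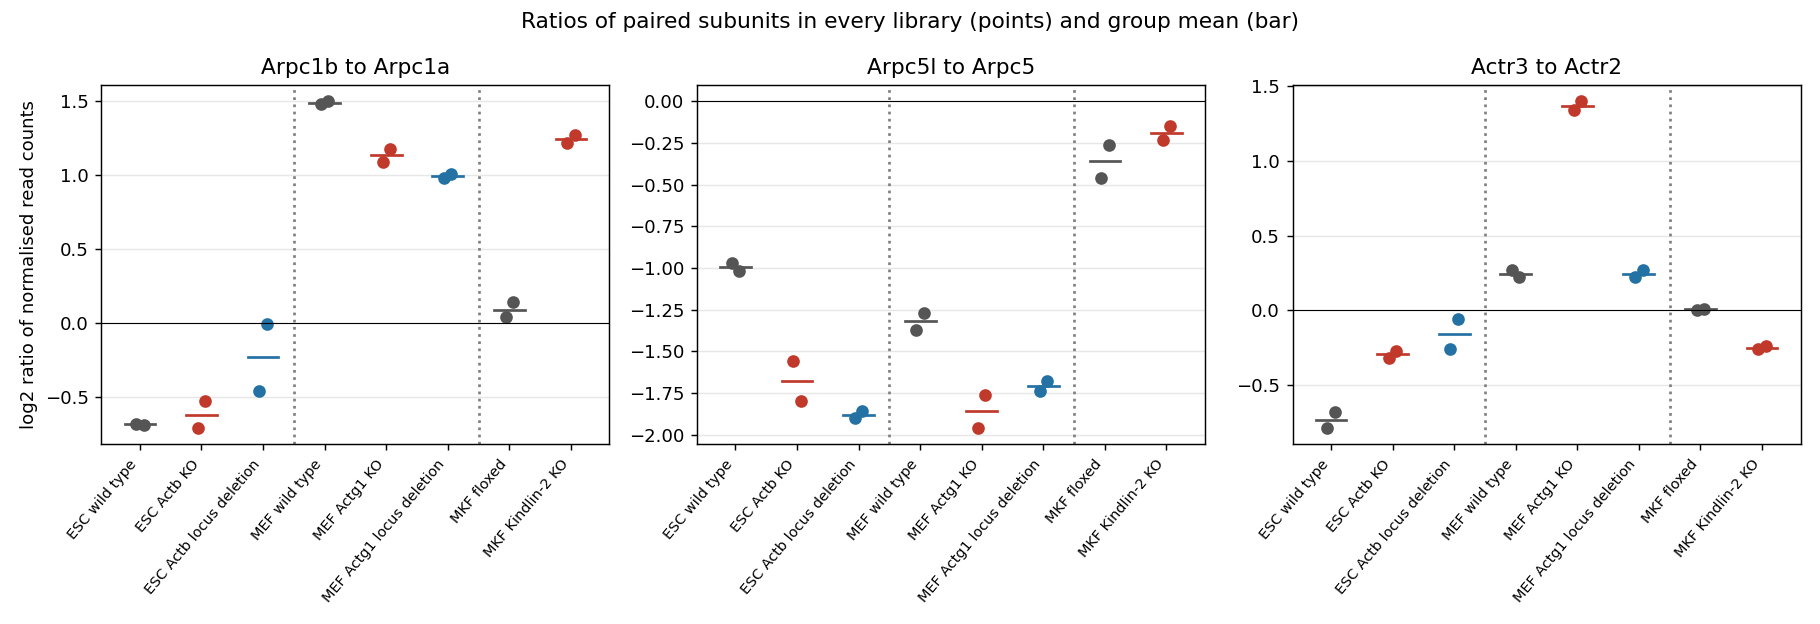
Log2 ratio of 2 subunits in every library, with a point per library, a bar at the group mean and dotted lines between the tables. The Actr3 to Actr2 ratio of the Actg1 KO (mean 1.37 on the log2 scale) stands above all other groups, and the Arpc1b to Arpc1a ratio of the Kindlin-2 KO (1.24) stands above floxed (0.09).

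Between genes, levels were compared per kilobase of exon. Arpc2 led in each group except wild-type ESCs, where Actr2 (1170 ± 15.9, SD) and Arpc2 (1170 ± 97) did not differ beyond their spread. In wild-type MEFs the order was Arpc2 (3230 ± 70.6), Actr3 (1730 ± 3.21), Actr2 (1300 ± 31.3), Arpc4 (1050 ± 37.5), Arpc5 (913 ± 17.1), Arpc1b (657 ± 17.7), Arpc3 (559 ± 16.9), Arpc1a (467 ± 8.54) and Arpc5l (186 ± 12.6), with no neighbours overlapping. Arpc5l was the lowest of the 9 in all 8 groups, above 67.1% to 79.7% of all genes of its table. Arpc1b was 8th in wild-type ESCs (97.8 ± 10.8), 6th in wild-type MEFs and 8th in floxed MKFs (212 ± 11.6), and it rose to 5th in KO MKFs (370 ± 10.9), past Arpc1a (311 ± 17.9). This order depends on the length used, that of all annotated exons, 5115 bases for Arpc1b and 2567 for Arpc1a. By counts Arpc1b was already above Arpc1a in floxed MKFs (1042 and 1126 against 1016 and 1021). In the Actg1 KO, Arpc4 moved from 4th to 6th (626 ± 2.44), not separated from Arpc3 in 5th (635 ± 17.7).

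The regulators of the complex were read from lists of WASP family genes with partners (12 genes), the other WAVE complex genes (8), the WASH complex (5), inhibitors and debranching factors (11) and capping protein (3), which stops filaments from growing at their fast end. In the Actb KO, 1 of the 38 tested (2.63%, beside 4.88% of all genes) passed limma's test and 7 had an unadjusted p under 0.05. The 1 was Capzb, a capping protein subunit, at 2299 and 1973 in wild type and 3133 and 3232 in the KO (0.58, adjusted p = 0.0216). Without the Actb locus 6 of 38 passed (15.8%), beside 11.2% of all genes and 17.8% of those with a mean of at least 100, which is near the background. Capzb rose (0.61, adjusted p = 0.00922), as did Coro1c, a coronin that binds the complex (0.59, adjusted p = 0.0136). Arpin, an inhibitor of the complex, fell from 95 and 97 to 35 and 43 (-1.29, adjusted p = 0.00622). From the WAVE complex Cyfip2 fell by 0.87 (adjusted p = 0.00651) and Abi3 fell from 10 and 12 to 3 and 2 (adjusted p = 0.0382), while Washc4 of the WASH complex fell by 0.45 (adjusted p = 0.0457). Of the WASP list 0 of 11 passed limma's test without the locus, with 1 at an unadjusted p under 0.05. The medians of the 5 lists lay between 0.01 and 0.16 in the KO and between -0.13 and 0.02 without the locus.

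In the Actg1 KO 22 of 36 regulators tested were called (61.1%), beside 39.7% of all genes and 59% of those with a mean of at least 100, so the share was near that of the latter. Of 10 WASP family genes and partners tested 4 rose and 2 fell, of 8 WAVE genes 2 rose and 3 fell, and of 5 WASH genes 1 rose and 3 fell. Wasl, the widely expressed activator N-WASP, fell from 4196 and 3890 to 2330 and 2397 (-0.77, adjusted p = 6.64e-05), and its partner Wipf1 fell by 1.01 (adjusted p = 4.29e-05). Within the WAVE complex, Abi1 fell by 1.21 (adjusted p = 1.19e-05) and Nckap1 by 0.91 (adjusted p = 1.64e-05). Members of these complexes at low levels rose, Cyfip2 from 33 and 49 to 201 and 221, Nckap1l from 4 and 12 to 103 and 121, and Wasf3 from 4 and 5 to 250 and 263. Among inhibitors and debranching factors 3 rose and 3 fell of 10, with Coro2a higher by 1.10 and Coro1b, which removes branches, at -0.67. Capza2 of the capping protein fell by 0.71 (adjusted p = 0.000207). List medians lay between -0.21 and 0.15, beside 0.06 over all genes.

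Without the Actg1 locus 13 of 36 regulators were called (36.1%), beside 22% of all genes and 37.9% of those with a mean of at least 100. Wasl fell again (-0.79, adjusted p = 0.00018), and Capza2 fell by 0.71 (adjusted p = 0.000591). Both Actg1 mutants were set against the same 2 wild-type libraries, so these shared values are not 2 independent results. Arpin rose from 829 and 759 to 1126 and 1211 (0.56, adjusted p = 0.00192), and Cyfip1 of the WAVE complex rose by 0.58 (adjusted p = 0.000375). Coro2a, at 184 and 186 in wild type, was listed at 0 in both libraries. The counts were 1 higher and 4 lower of 10 for the WASP list, 2 and 1 of 8 for WAVE, 0 and 0 of 5 for WASH (1 at an unadjusted p under 0.05 in limma), 1 and 2 of 10 for inhibitors and 0 and 2 of 3 for capping protein, with list medians from -0.31 to 0.06. The TRiC list had 6 of 8 genes higher, beside 9.46% of all genes higher and 37.9% of genes with a mean of at least 100 called in either direction, with Cct8 at 0.41 (adjusted p = 0.002) and a median of 0.26, where in the Actg1 KO Cct8 fell by 0.95 (adjusted p = 1.53e-05), 0 rose and 2 fell.

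In the Kindlin-2 KO 23 of 35 regulators were called (65.7%), beside 49.2% of all genes and 65.9% of those with a mean of at least 100, which is the background share. Of 5 WASH genes 4 fell and 0 rose, led by Washc4 at 4072 and 3996 in floxed and 2412 and 2245 in KO cells (-0.79, adjusted p = 0.000335). Of 9 WASP family genes and partners 5 fell and 1 rose, and the differences of the list ran from -1.4 to 0.23. Cttn, which steadies branches, fell by 0.43 (adjusted p = 0.00291) and Wasf1 fell by 0.56 (adjusted p = 0.00279). Abi1 rose by 0.65 (adjusted p = 0.00205), while Brk1, Abi2 and Cyfip1 fell by 0.53, 0.24 and 0.22, which made 1 higher and 3 lower of 7 WAVE genes. Coro2a stood at 14 and 8 in floxed and 899 and 923 in KO cells, Coro1b fell by 0.56, and 3 rose and 3 fell of 11 inhibitors and debranching factors. Capzb and Capza2 fell by 0.56 and 0.48 and Capza1 rose by 0.32. The medians were -0.43 for the WASP list, -0.22 for WAVE, -0.29 for WASH, -0.08 for inhibitors and -0.48 for capping protein, while that of the subunits was 0.28.

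**Figure D4:**
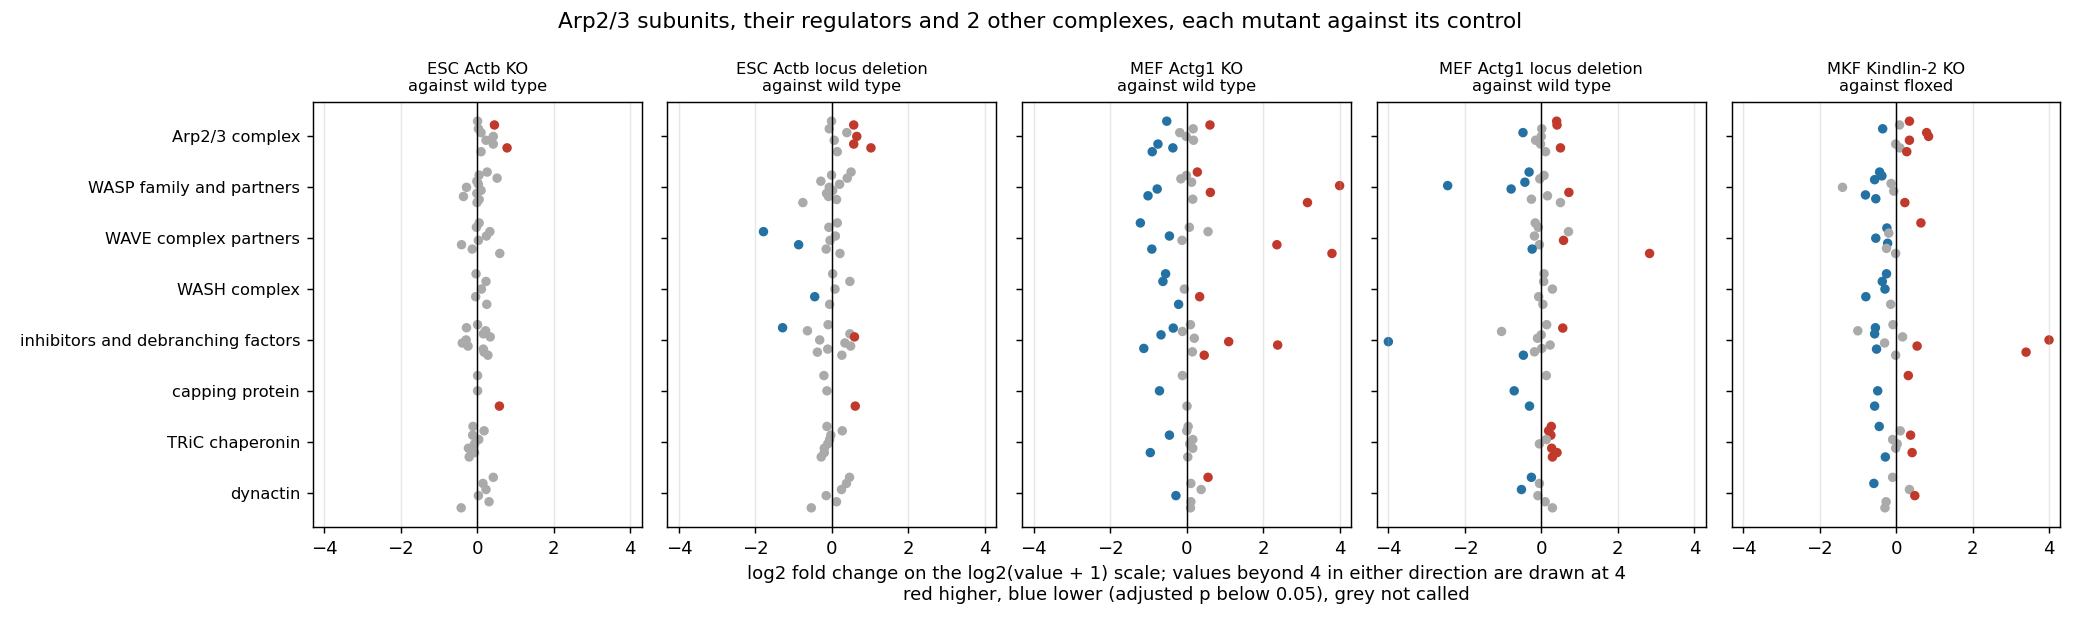
Log2 fold change of every tested gene of the Arp2/3 complex, its regulators and 2 other complexes in the 5 comparisons of a mutant with its control, 1 point per gene, red higher, blue lower, grey not called, with values beyond 4 drawn at 4. In the Kindlin-2 panel the WASH row holds 4 blue points and no red one while the Arp2/3 row holds 5 red points and 1 blue one.

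Likeness to the complex was measured as the distance between a gene's 5 differences, each mutant against its control, and the medians of the subunits, among 7735 genes with a mean of at least 100 in each table. The nearest genes were Jmjd4 (distance 0.0852), Lrrc45 (0.086), Zfp628 (0.121), Urod (0.124) and Sf3b4 (0.136). The subunits themselves lay at distances from 0.521 (Arpc3, with 849 genes nearer) to 0.999 (Arpc5, with 4463 genes nearer), where the median gene lay at 0.921. Of the 9 subunits 7 lay nearer than the median gene and 2, Actr3 and Arpc5, lay farther. The subunits set the medians from which they are measured, so their distances are a description only. Of the 5 comparisons, the 2 in ESCs share their controls and so do the 2 in MEFs.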

How the data were processed

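RNA of the 16 libraries was total RNA from a miRNeasy micro kit with DNase treatment, sequenced from SMARTer stranded libraries, per the labels' protocols. Tools listed in the submitters' processing notes, with no role or order, are DESeq, DESeq2 1.14.1, FastQC, featureCounts 1.6.0, STAR 2.5.3a and Subread, with the builds mm10 and GRCm38. The use of strand in counting is not given in the sources used here. Each cell type has 1 table whose deposited values, entered here as a score, are whole numbers. Judged from the values alone they are gene counts scaled by a factor for each library and then rounded, so a level in 1 table cannot be set against a level in another. The lowest maximum of a listed gene was 4 (ESC, MEF) or 5 (MKF). Depth is known only as the summed values in the report.

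Differences were tested with limma 3.58.1 (R 4.3.3) after a log2(value + 1) transform, which understates changes of low genes. All groups of a table entered 1 group-means fit with a trend in the variance prior, for genes with a mean of 1 or more, and Benjamini-Hochberg adjustment ran over 23054 (ESC), 21589 (MEF) and 18288 (MKF) genes. A count test had been planned for raw counts and was not used, since the values are scaled and rounded. The code was tested on simulated data. Residual degrees of freedom were 3, 3 and 2, and prior degrees of freedom 5.4, 4.57 and 2.82. Positions, exon lengths and overlaps are from GENCODE M21 on GRCm38, and promoter windows from RefSeq. Of 23083, 21615 and 18288 gene identifiers, 23045, 21573 and 18257 were found in that annotation. In ESCs, same-numbered libraries deviated from their group means together, with correlations of 0.678, 0.349 and 0.492 over 11369 genes. This pairing is read from the values, since the labels give only numbers, and the tests carry no block. Between the 2 libraries of a group the median chi-square per gene was 0.729 to 3.19, where sampling alone would give 0.455 for unscaled counts. The values are scaled by unknown factors, so this cannot decide whether 2 libraries differ beyond sampling noise.

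The 9 subunits and all gene lists were chosen with earlier results of these data known. One further list of regulators is not reported here. Genes named are the subunits, the targeted genes, up to 4 genes per list and comparison with the largest differences among those that passed, and the 5 genes nearest to the subunits' medians. Rpl35, Wdr38, Pdap1 and Ttll3 (exon overlaps) and genes named at an unchanged or low level were added after their values were seen. Alternatives were pseudocounts of 5 and 0.5, no filter or a mean of at least 10, rescaling by TMM factors or without genes over 1% of a library, no trend, only the 4 libraries compared, a replicate block and each library left out. The pseudocount of 0.5 and the ratio of Actr3 to Actr2 were added after seeing the data.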

Additional observations from a re-analysis of the deposited data

How the results depend on the processing

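Pseudocounts of 5 and 0.5, no filter, a mean of at least 10, TMM factors and the replicate block kept each count of called subunits within 1.5 times. The 5 subunits called in the Actg1 KO kept their calls in all 13 alternatives, and some settings added up to 3 more. The 2 calls of the Actb KO were lost in each of the 4 fits without a library. Where 1 library is left in a group, its spread is taken from the rest of the table. Groups of 2 libraries limit all tests. Apart from the smaller number of libraries in the reduced fits, the cause of the changes below was not tested. The Kindlin-2 table holds only 4 libraries, so a fit restricted to the 4 compared was not run there.

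Rescaling without genes over 1% of a library left 1 called subunit in the Actb KO (Arpc5). Without the trend, called subunits numbered 0 in the Actb KO, 0 in the Actb deletion, 1 in the Actg1 deletion and 4 between the Actg1 mutants. All genes called were then 152 (from 1126), 567 (from 2580), 58 (from 1125, Actb KO against deletion) and 2082 (from 4755, Actg1 deletion). With only the 4 libraries compared, called subunits numbered 0 in the Actb KO and 8 in the Actg1 KO, and all genes called were 272, 876, 214 and 2986 in the same 4 comparisons. With a replicate block, calls over all genes were 1850 (Actb KO) and 1735 (Actb KO against deletion), and Arpc2 was called in the Actb KO; no other subunit call changed. In MEFs and MKFs the correlations of same-numbered libraries were -0.302, -0.211, 0.214 and -0.0952. Whether libraries with the same number share more than the number is not in the labels.

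With 1 library left out, called subunits and all genes called ranged as follows: 0 to 0 and 0 to 18 in the Actb KO, 0 to 1 and 58 to 370 in the Actb deletion, 4384 to 5879 genes in the Actg1 KO (5 subunits each time), 1803 to 3321 genes in the Actg1 deletion (4 subunits each time), 4 to 8 and 5759 to 8205 between the Actg1 mutants, and 1 to 3 and 2112 to 3834 in the Kindlin-2 KO. Between the Actb mutants 1 to 30 genes were called.

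Differences near 0 changed sign in places. In the Actb KO, Actr2 and Arpc1a were -0.06 and -0.04 after rescaling without genes over 1%, and Actr2 was -0.00099 with TMM factors. Between the Actb mutants Actr2 was -0.01 after that rescaling, and Arpc2 was 0.07 in the Actg1 KO and 0.09 between the Actg1 mutants. With 1 library left out, the ranges that crossed 0 in the Actb KO were -0.04 to 0.06 (Actr2), -0.07 to 0.14 (Arpc1a), -0.01 to 0.21 (Arpc1b), -0.09 to 0.55 (Arpc3), -0.06 to 0.26 (Arpc5l) and -0.02 to 0.16 (ratio of Arpc1b to Arpc1a). In the Actb deletion they were -0.14 to 0.12 (Actr2), -0.17 to 0.04 (Arpc1a) and -0.26 to 0.38 (Arpc3). Between the Actb mutants they were -0.11 to 0.14 (Actr2), -0.04 to 0.39 (Arpc3) and -0.2 to 0.12 (Arpc5l). In the Actg1 KO the range was -0.06 to 0.03 (Arpc2), and between the Actg1 mutants -0.1 to 0.08 (Arpc2). In the Actg1 deletion they were -0.02 to 0.05 (Arpc1a), -0.09 to 0.08 (Arpc2), -0.06 to 0.02 (Arpc4) and -0.02 to 0.03 (ratio of Actr3 to Actr2). None of these subunits was called in that comparison.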

Other observations

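The actin-related proteins outside the complex, most of which serve in dynactin or in chromatin remodelling, were read from a list of 9 genes, 8 of them tested. In the Actb KO and the Actb deletion 0 of 8 passed limma's test, with 1 of 8 at an unadjusted p under 0.05 in each. In the Actg1 KO 3 rose and 2 fell, with Actl6a, a chromatin remodelling subunit, higher by 0.37 (adjusted p = 0.00231) and Actr1b of dynactin higher by 0.31 (adjusted p = 0.014). These were not the largest differences of the list, which ran from -0.29 to 1.79 in that KO. Actl6a was also higher in the Actg1 deletion, by 0.22 (adjusted p = 0.0395), as the 1 gene of the list that passed there, against the same wild-type libraries. In the Kindlin-2 KO 3 rose and 1 fell, with Actl6a higher by 0.33 (adjusted p = 0.00295) and Actr1a, which forms the dynactin filament, at -0.56 (adjusted p = 0.000547). There the list ran from -1.11 to 0.65.

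For the complexes read beside Arp2/3, TRiC had 0 of 8 genes called by limma in each Actb mutant (1 and 2 at an unadjusted p under 0.05), with medians of -0.09 and -0.12. In the Kindlin-2 KO 2 TRiC genes rose and 2 fell, Cct8 and Cct4 by 0.42 and 0.38 and Cct2 and Tcp1 at -0.44 and -0.28. Dynactin had 0 of 6 called by limma in each Actb mutant (2 at an unadjusted p under 0.05 in each), 1 higher and 1 lower in the Actg1 KO, 0 higher and 2 lower in the Actg1 deletion, and 1 higher and 1 lower in the Kindlin-2 KO, where Dctn2 was at -0.58 (adjusted p = 0.000387) and Dctn4 at 0.49 (adjusted p = 0.00072).

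Of the 8 ESC markers, 1 fell in the Actb deletion, Tdgf1 at -0.44 (adjusted p = 0.0261). The same list gave values in fibroblasts that stood far apart between groups. Sox2, a pluripotency and neural factor, read 44 and 32 in wild-type MEFs, 1326 and 1306 in the Actg1 KO and was listed at 0 in both libraries without the Actg1 locus. It read 132 and 134 in floxed MKFs and 3 and 0 in the Kindlin-2 KO. Klf4 read 1873 and 1790 in wild-type MEFs, 806 and 806 in the Actg1 KO and 471 and 540 without the locus, and it rose by 2.33 in the Kindlin-2 KO (adjusted p = 5.94e-05). The part of these shifts in the subunit differences was not tested.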
